A study of Mus musculus with 12 samples.

Results

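The genes described here encode the proteins of the cytosolic ribosome. Members were the rows of the deposited table whose symbol begins with Rpl, Rps or Rplp and a number, without the S6 kinases and without symbols marked as pseudogenes, together with Rpsa. The rule gave 96 of 23764 gene identifiers. Of these, 77 are core ribosomal proteins, 46 of the large and 31 of the small subunit. Another 7 are paralogs, namely Rpl3l, Rpl7l1, Rpl22l1, Rpl36al, Rpl39l, Rps27l and Rps27rt. The reference names 11 further rows as pseudogenes or predicted genes, and these are called copies here. The remaining row, Rps19bp1, is a protein that binds Rps19 and is not a ribosome subunit.

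The cells were RAW264.7, an immortalized mouse line from the Balb/c strain with monocyte and macrophage character. All 12 libraries came from cells given RANKL, a cytokine under which macrophage precursors become bone-resorbing osteoclasts. The vehicle arm received MEM-alpha medium and the treatment arm received culture supernatant of the gut bacterium L. reuteri. Total RNA was sequenced in 2 libraries per group at days 1, 3 and 5. Whether the numbered libraries of a group came from separate cultures is not said in the labels, so the spread behind each p-value may be technical. Of 9 macrophage markers, 8 had at least 10 normalized counts in every library. So had 3 of 5 osteoclast markers, and the sum of the 5 ran from 1105 to 9839. Only 1 listed marker each was measured for fibroblasts, T cells, B cells, epithelial and erythroid cells, and 2 for osteoblasts. The sum for each of these types, taken alone, stayed between 0 and 15.5 normalized counts.

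Each cytosolic ribosome holds 1 copy of most of its proteins, and cells make these proteins together from many unlinked genes. Their mRNAs are short and abundant, and most begin with a C followed by a run of pyrimidines, the terminal oligopyrimidine (TOP) tract, through which the kinase complex mTORC1 and the protein Larp1 control their translation and stability. Demand for ribosomes is high in growing and dividing cells, and macrophage precursors leave the cell cycle as they fuse into osteoclasts.

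The libraries differed in a way that the groups do not explain, and this touches every result below. Depth was 8071160 to 16781080 reads per library. Replicate 2 of days 3 and 5, 4 libraries in both arms, gave 38.1% to 48.8% of their reads to nuclear protein-coding genes, where the remaining 8 gave 85.3% to 87.6%. Mitochondrial transcripts took 25.7% to 30.6% of reads in these 4 libraries and 3.64% to 5.97% in the others, and the nuclear RNA Malat1 took 8.15% to 14.0% and 0.22% to 0.49%. Results are therefore given over 12 libraries and over the 8 others. In the 8-library fit, each arm has 1 library at day 3 and at day 5, which is assumed to vary like the pairs of day 1.

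To show such tracts, windows of 10 bases before to 20 bases from the RefSeq start site were read for members with a tract exactly there. The tract, searched on the transcribed strand as a C followed by at least 4 bases that are C or T, is in capitals, and the upstream pyrimidines are left in lower case. In build GRCm38.p6 the windows are Rps6 at chr4:86857348-86857377 on the minus strand, Rpl15 at chr14:18270967-18270996 on the minus strand, Rpl35 at chr2:39005112-39005141 on the minus strand, Rps10 at chr17:27635225-27635254 on the minus strand, Rps18 at chr17:33955646-33955675 on the minus strand, Rplp2 at chr7:141447641-141447670 on the plus strand, Rps27 at chr3:90213629-90213658 on the minus strand and Rps27rt at chr9:114982720-114982749 on the minus strand.
Rps6: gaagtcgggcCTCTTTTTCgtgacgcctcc
Rpl15: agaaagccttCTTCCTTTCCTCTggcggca
Rpl35: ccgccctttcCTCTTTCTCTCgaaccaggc
Rps10: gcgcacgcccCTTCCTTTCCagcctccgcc
Rps18: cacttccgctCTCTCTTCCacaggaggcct
Rplp2: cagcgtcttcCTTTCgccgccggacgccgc
Rps27: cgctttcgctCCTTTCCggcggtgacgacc
Rps27rt: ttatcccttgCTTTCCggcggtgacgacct
Of 57 core members with a RefSeq promoter, 13 (22.8%) had such a tract exactly at the start site, against 255 of 8998 tested protein-coding genes (2.83%). When the tract could begin within 5 bases of the start site, it was found in 27 core members (47.4%) and in 23.7% of the protein-coding genes. A match is a description of these letters, and annotated start sites can be off by a few bases. The 13 members with a tract at the start site had day 3 changes close to those of the others, with no test. Their median from day 1 to replicate 1 of day 3 was 0.45 log2 units in vehicle and 0.46 in treatment. It was 0.47 and 0.42 in the 44 without a tract exactly there, some of which had a tract within 5 bases. Replicate 2 minus replicate 1 of days 3 and 5 had a median of 0.21 in the 13 and of -0.27 in the 44, also with no test.

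As a share of all reads, the members took 3.68% and 3.62% of the vehicle libraries of day 1 (replicates 1 and 2) and 3.52% and 3.42% of the treatment libraries. At day 3 the shares were 5.00% and 3.59% in vehicle and 4.67% and 4.92% in treatment. At day 5 they were 3.27% and 4.12% in vehicle and 3.23% and 4.51% in treatment. Replicate 1 was thus highest at day 3 and lowest at day 5 in both arms, and replicate 2 of days 3 and 5 did not follow replicate 1. Counted over nuclear protein-coding reads alone, the protein-coding members took 3.89% to 4.16% at day 1, 5.66% and 5.31% in replicate 1 of day 3 (vehicle and treatment), and 3.63% and 3.59% in replicate 1 of day 5. Replicate 2 of days 3 and 5 stood at 9.03% to 10.2% on that scale, above every other library. Wilson 95% intervals reached at most 0.0149 percentage points either side for all reads and 0.0312 for nuclear protein-coding reads, and cover counting error only. In such bulk samples, fewer cells of a type and less RNA per cell cannot be told apart.

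**Figure D1:**
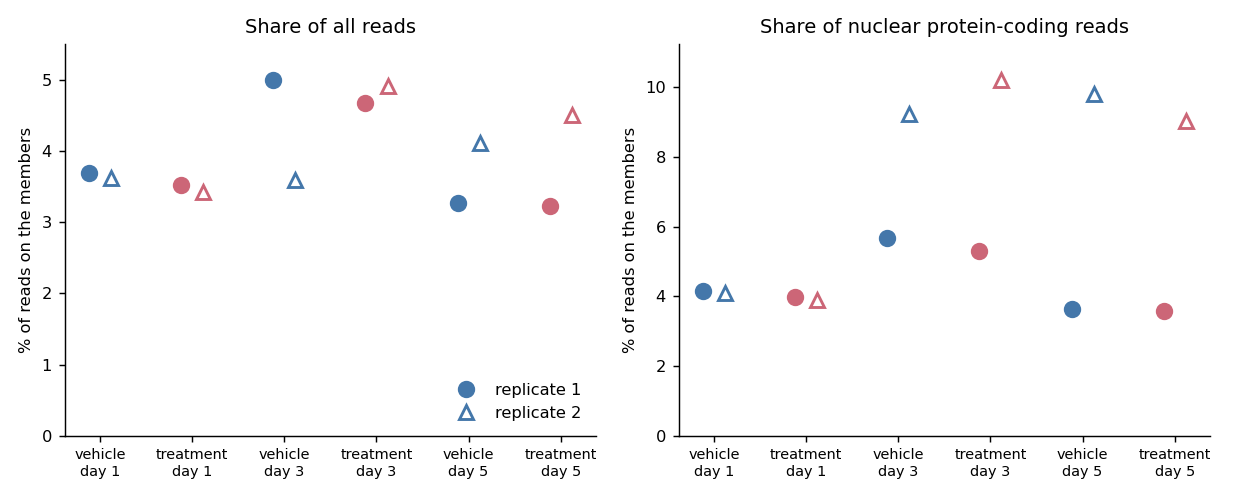
Share of reads on the members in each library, as a percentage of all reads (left) and, for protein-coding members, of nuclear protein-coding reads (right). Filled circles are replicate 1 and open triangles replicate 2. On the right, replicate 2 of days 3 and 5 lies at 9.03% to 10.2%, above all other libraries.

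From day 1 to day 3 most ribosomal protein genes rose in the 8-library fit. In the vehicle arm 86 of 95 tested members rose and 0 fell (limma, Benjamini-Hochberg adjusted p under 0.05), where 9.69% of all 14715 tested genes were called higher and 10.0% lower. The median log2 difference was 0.46 over the members and 0.04 over all genes. The count held 76 of 77 core members, 1 of 6 tested paralogs (Rps27rt) and 9 of 11 copies. Large and small subunit members had close medians, 0.44 over 46 genes and 0.48 over 31. The core difference ran from 0.27 in Rpl7a (adjusted p 0.0536), a large-subunit protein, to 0.86 in Rps27 (adjusted p 0.00624, limma), a zinc-binding small-subunit protein. In the treatment arm, a comparison added after seeing the data, 85 of 95 members rose and 0 fell, where 10.8% of genes were called higher and 9.13% lower, with medians of 0.43 and 0.07. Of the 86 members that rose in vehicle and the 85 in treatment, 83 were shared. With most members called in each arm, a large overlap follows from the counts alone. The overlap over all genes is not given, here or for the falls at day 5. Across the 77 core members the changes in the arms had a Spearman correlation of 0.67, a description across genes, from arms that share no library.

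These calls rest on the choice of libraries. For 8-library refits with a day 1 library left out, no filter or another pseudocount, here and below, the share of all genes called is not given. Lower member counts in such refits are therefore not read as particular to the members. Over 12 libraries, limma called 0 of 95 members and 0% of genes between days 1 and 3 in either arm, and 0 members had an unadjusted p under 0.05. In vehicle replicate 2 of day 3 the core median lay 0.24 log2 units below the vehicle day 1 mean on the deposited scale (-0.24), with 23 core members above both day 1 libraries and 50 below both, while the median of all genes was -1.68. In treatment replicate 2 it was 0.26, with 49 above both and 25 below both, beside -1.15 over all genes. In replicate 1 of day 3, 77 of 77 core members lay above both day 1 libraries in each arm. Scaled to nuclear protein-coding reads, the core median of vehicle replicate 2 was 0.93, with 70 of 77 above both. With a day 1 library left out, which leaves 1 pair to give the spread, the 8-library fit called 0 members in vehicle without vehicle replicate 1 or 2, and 57 and 58 without treatment replicate 1 or 2, while the median stayed at 0.43 to 0.47. In treatment such fits called 0 to 5 members with medians of 0.41 to 0.46. Without the filter on low counts 32 members were called in vehicle and 30 in treatment.

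Among the members with the most reads were Rpl4, Rps3a1, Rpsa, Rpl3 and Rpl5, by count and without regard to length. Rpl4, which lines the exit tunnel of the large subunit, had 18362 and 18406 normalized counts in vehicle and 18268 and 17388 in treatment at day 1. At day 3 it had 24223 and 11093 in vehicle and 22004 and 13748 in treatment, and at day 5 17937 and 10649, and 17792 and 13134. Replicate 1 of day 3 was the highest pair, and replicate 2 of days 3 and 5 was below every other library.

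Rps3a1, a small-subunit protein, had 17230 and 17301 counts in vehicle at day 1, 23893 and 6885 at day 3, and 15904 and 9630 at day 5. Treatment gave 16197 and 16546, then 23068 and 10802, then 15946 and 12218. Its change from day 1 to day 3 in vehicle was 0.47 ± 0.06 log2 units (SE, as after each ± here, adjusted p 0.00924, limma, 8 libraries). Rpl3, which reaches toward the peptidyl transferase centre, changed by 0.43 ± 0.07, and Rpl5, a carrier of 5S rRNA that also binds Mdm2, by 0.43 ± 0.06. Over 12 libraries the same difference was -0.40 ± 0.58 in Rpl3 and -0.20 ± 0.46 in Rpl5.

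Rps6, a substrate of the S6 kinases, had 12038 and 11401 counts in vehicle at day 1, 16028 and 6373 at day 3, and 10262 and 7857 at day 5. In treatment it had 11384 and 11234, then 15720 and 9653, then 10958 and 10211. Its replicate 1 followed the course of the other core members, with 0.45 ± 0.07 in vehicle and 0.48 ± 0.07 in treatment from day 1 to day 3 (adjusted p 0.0106 and 0.0105, limma, 8 libraries).

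Rplp0, Rplp1 and Rplp2 form the stalk that recruits elongation factors to the ribosome. Rplp0 changed by 0.47 ± 0.08, Rplp1 by 0.50 ± 0.09 and Rplp2 by 0.47 ± 0.06 from day 1 to day 3 in vehicle (adjusted p 0.0164, 0.0211 and 0.00832, limma, 8 libraries). The stalk genes parted in replicate 2, where Rplp0 had 7040 counts and Rplp2 10345 at day 3 of vehicle, against 18024 and 4602 in replicate 1. Rplp1 had 8252 in replicate 2 and 7423 in replicate 1. At day 5 of vehicle Rplp0 hardly differed, with 10017 in replicate 2 and 11223 in replicate 1, while Rplp2 had 7025 and 2975. Among the members called at day 3 of vehicle, the largest differences were those of Rps27rt, Rps26-ps1 and Rps27. Rps26-ps1 had 182 and 181 counts in vehicle at day 1 and 337 in replicate 1 of day 3, a change of 0.89 ± 0.11 (adjusted p 0.00786), with 194, 178 and 254 in the same libraries of treatment.

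**Figure D2:**
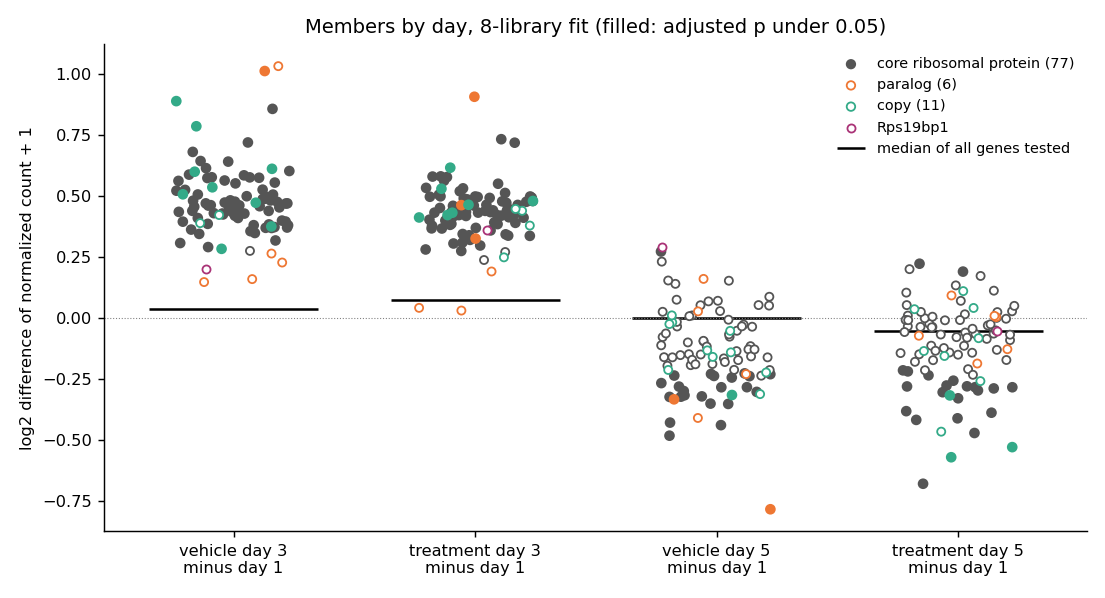
Log2 difference from day 1 for each tested member in the 8-library fit, at days 3 and 5 of each arm. Points are genes, filled where adjusted p was under 0.05, and black lines are the median of all genes tested. At day 3 all 95 members lie above 0 in both arms, while at day 5 the members spread around 0, with 20 above it in vehicle and 22 in treatment.

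At day 5 replicate 1 stood near or below day 1. In vehicle 25 of 95 members fell, where 15.0% of genes were called lower, and 1 rose, where 14.4% were called higher. The median was -0.15 over members and -0.00325 over all genes. In treatment 22 fell, where 18.1% of genes were called lower, and 2 rose (Rpl23 and Rps25, outside the naming rule and chosen after their values were seen), where 12.9% were called higher, with medians of -0.08 and -0.05. Of the members that fell, 16 were shared by the 25 in vehicle and the 22 in treatment. With a day 1 library left out, 1 to 8 members were called in vehicle and 2 to 7 in treatment. Over 12 libraries limma called 0 members and 0% of genes at day 5 in either arm, 0 members had an unadjusted p under 0.05, and the median over members was 0.09 in vehicle and 0.20 in treatment.

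Rpsa, a small-subunit protein also known as the laminin receptor, was among the largest falls. It had 14401 and 14265 counts in vehicle at day 1, 18642 and 50808 at day 3, and 10249 and 28220 at day 5. Treatment gave 13364 and 13025, then 17659 and 59776, then 10115 and 25373. Replicate 1 rose at day 3 (0.38 ± 0.06, adjusted p 0.014) and fell at day 5 (-0.48 ± 0.06, adjusted p 0.0054, limma, 8 libraries), whereas replicate 2 was above all day 1 libraries at both days, so the sign at day 5 depended on the library. Rpl8, a large-subunit protein, fell by 0.44 ± 0.07 in vehicle and by 0.47 ± 0.07 in treatment (adjusted p 0.0113 and 0.00887). Its counts in vehicle were 6664 and 6203 at day 1 and 4737 and 7060 at day 5, so its replicates also fell on either side of day 1. Rps28, at the mRNA exit side of the small subunit, was the 1 member that rose at day 5 in vehicle (0.27 ± 0.06, adjusted p 0.0273), with 1002 and 1026 counts at day 1 and 1224 and 1396 at day 5.

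The L. reuteri supernatant was compared with vehicle at each day. Over 12 libraries limma called 0 of 95 members and 0% of genes at any day, 0 members had an unadjusted p under 0.05, and limma-voom on recovered reads also called 0 members. In the 8-library fit 0 members passed at day 1, where 5.74% of genes were called, and 0 at day 3, where 0.116% were called. Unadjusted p was under 0.05 for 9 members at day 1 and 15 at day 3, and limma-voom called 1 member at each of these days, Rpl7l1 and Rpl30 (the second chosen after its value was seen), where it called 13.6% and 2.32% of genes. At day 5, 1 member rose and 0 fell, where 2.54% of genes were called higher and 3.27% lower, and 14 members had an unadjusted p under 0.05. With no filter or a pseudocount of 5 the count at day 5 was 2, and limma-voom called 5, where it called 13.3% of genes: Rpl22l1 was higher, and Rps27l, Rps2, Rpl37a and Rps2-ps10 were lower (the last 3 chosen after their values were seen). Member counts at unadjusted p, here and in the test between days, stand without the share of all genes at that level. They are therefore not read as an excess over all genes. The medians over members were -0.07, -0.10 and -0.04 at days 1, 3 and 5, beside -0.04, -0.01 and -0.09 over all genes. Members were higher in treatment in 15 of 95 cases at day 1, 9 at day 3 and 35 at day 5, beside 41.6%, 48.4% and 36.0% of all genes, so the day 5 count was near that of all genes.

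Taken library by library, the sign at day 3 depended on the replicate. Core members had a median treatment minus vehicle difference of -0.07 in each replicate of day 1 and of -0.10 in replicate 1 of day 3, with 73 of 77 lower, beside 7522 of 14715 genes. In replicate 2 of day 3 the median was 0.59, with 74 of 77 higher, beside 0.46 and 11421 of 14715 over all genes. At day 5 it was -0.03 in replicate 1 and 0.16 in replicate 2, beside -0.09 and 0.23 over all genes. These replicate 2 libraries held 38.1% (vehicle) and 47.1% (treatment) nuclear protein-coding reads at day 3 and 41.0% and 48.8% at day 5, and the part of this in the differences was not tested. A limma F test, which asks whether the effect of the supernatant differs by day, called 0 of 95 members in the 12-library fit, where 0% of genes passed, and 0 in the 8-library fit, where 0.102% passed. Unadjusted p was under 0.05 for 0 and 6 members.

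**Figure D3:**
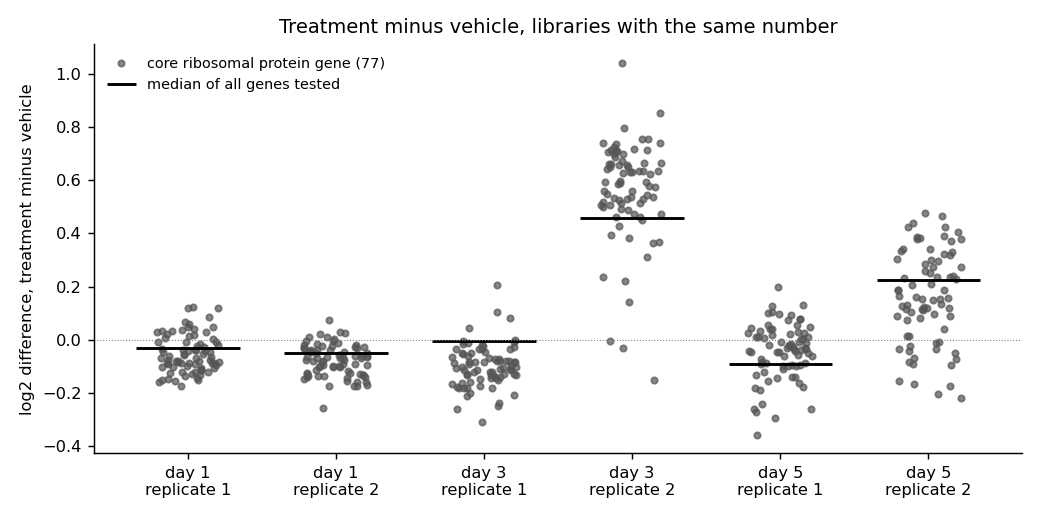
Log2 difference of treatment minus vehicle for the 77 core members in each pair of libraries with the same day and number. Points are genes and black lines the median of all genes tested. Replicate 2 of day 3 has a core median of 0.59, where the other replicate of that day has -0.10.

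Rpl22l1 was the member that differed between the arms in the 8-library fit. It is the paralog of the large-subunit gene Rpl22. Its counts in vehicle were 1069 and 1032 at day 1, 1229 and 412 at day 3, and 609 and 619 at day 5. In treatment they were 944 and 944, then 1076 and 562, then 945 and 648. Treatment minus vehicle was 0.63 ± 0.07 at day 5 (adjusted p 0.0179, limma, 8 libraries), a value that rests on 1 library per arm, 945 against 609, and the replicate 2 libraries of that day, at 648 and 619, were close to each other. With any 1 day 1 library left out it was no longer called. In vehicle Rpl22l1 fell from day 1 to day 5 by 0.79 ± 0.06 (adjusted p 0.00167), and in treatment the difference was 0.0023 ± 0.058 (adjusted p 0.983). Rpl22 itself had 2517 and 2570 counts in vehicle at day 1 and 2825 and 1857 at day 5, with a treatment minus vehicle difference of -0.18 ± 0.06 at day 5 (adjusted p 0.165).

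Rpl7l1, Rpl22l1, Rpl36al and Rps27l had smaller differences at day 3 of vehicle than their counterparts, with no test of that contrast. The other tested paralogs, Rps27rt and Rpl3l, went the other way in vehicle, with larger differences than Rps27 and Rpl3. Reads inside the Rps27rt coding sequence cannot be told apart from those of Rps27. In treatment the day 3 difference was 0.03 in Rpl3l and 0.43 in Rpl3. Rpl3l had few reads and did not pass the test. The differences in this paragraph are from the 8-library fit, unless said otherwise. Over 12 libraries those at day 3 of vehicle were -0.77 in Rpl7, -0.21 in Rpl22 and 0.31 in Rpl36a. Beside these, Rpl22l1 had -0.56 and Rpl36al -0.12. From day 1 to day 3 of vehicle the difference was 0.16 ± 0.05 (adjusted p 0.104) in Rpl7l1, where Rpl7 rose by 0.39 ± 0.06 (adjusted p 0.0119, limma, 8 libraries). It was 0.23 ± 0.06 (adjusted p 0.0522) in Rpl22l1, and Rpl22 rose by 0.49 ± 0.06 (adjusted p 0.00537). In Rpl36al it was 0.26 ± 0.08 (adjusted p 0.0792), and Rpl36a rose by 0.55 ± 0.05 (adjusted p 0.0032). In Rps27l it was 0.15 ± 0.06 (adjusted p 0.138), beside 0.86 ± 0.10 in Rps27. Each of these 4 paralogs was thus below its counterpart, unlike Rps27rt and Rpl3l, and none of the 4 passed the test in vehicle. In treatment Rpl7l1 (0.32 ± 0.05, adjusted p 0.0169) and Rpl36al (0.46 ± 0.08, adjusted p 0.019) did.

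Few reads fell on Rpl3l and Rpl39l. Rpl3l, which is known from striated muscle, had between 3.68 and 21.3 normalized counts per library, too few to order the groups. Rpl39l, known from testis, was read in 3 of 12 libraries, at 0.76, 2.57 and 3.68 normalized counts, and did not pass the filter on low values. The counterparts Rpl10, Rpl39 and Rps4x changed by 0.48 ± 0.06, 0.50 ± 0.08 and 0.48 ± 0.06 from day 1 to day 3 in vehicle (limma, 8 libraries). Over 12 libraries the same difference was -0.41 ± 0.59 in Rpl10 and -0.24 ± 0.54 in Rpl39. Rps4x had 11761 and 11568 counts in vehicle at day 1, and 16264 and 7376 at day 3. Rps19bp1 had 135 and 148 counts in vehicle at day 1 and 163 and 172 at day 3, and its difference of 0.20 ± 0.13 did not pass the test (adjusted p 0.343).

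The Rps27 family shows how far reads of a member can be its own. Rps27 on chromosome 3 has 4 exons, Rps27l on chromosome 9 has 4, and Rps27rt, also on chromosome 9, has 1. The coding sequences, all exonic and 255 bases long in GENCODE M21, are shown because the family holds both the largest and the smallest change at day 3 among the named small-subunit members. Capitals in Rps27l mark the 61 bases that differ from Rps27.
Rps27: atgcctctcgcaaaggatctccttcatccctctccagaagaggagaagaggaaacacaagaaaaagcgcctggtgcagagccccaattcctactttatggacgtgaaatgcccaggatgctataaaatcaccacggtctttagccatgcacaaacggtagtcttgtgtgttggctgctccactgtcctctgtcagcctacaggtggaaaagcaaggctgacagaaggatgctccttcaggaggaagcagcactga
Rps27l: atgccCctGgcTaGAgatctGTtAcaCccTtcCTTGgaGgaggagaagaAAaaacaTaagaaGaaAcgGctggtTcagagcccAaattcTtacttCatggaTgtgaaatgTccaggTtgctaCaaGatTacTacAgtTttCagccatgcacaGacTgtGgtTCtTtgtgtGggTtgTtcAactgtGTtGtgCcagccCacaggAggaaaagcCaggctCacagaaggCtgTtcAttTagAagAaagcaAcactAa
Rps27rt has the Rps27 coding sequence without a single difference, so reads inside it cannot be told apart, while Rps27l is 76.1% identical with no shared run longer than 11 bases. Rps27rt had 126 and 123 counts in vehicle and 121 and 102 in treatment at day 1, and 252 and 209 in replicate 1 of day 3. It stood at 4.49% to 8.06% of the Rps27 count in every library. Rps27 had 2445 and 2503 counts in vehicle at day 1, 4478 and 2963 at day 3 and 2444 and 4117 at day 5. In treatment it had 2663 and 2269, then 4042 and 3825, then 2412 and 4161. Rps27l had 1026 and 1056 counts in vehicle at day 1, 1152 and 285 at day 3, and 1162 and 502 at day 5, so in replicate 2 it went the other way from Rps27 at day 5. In treatment Rps27l had 957 and 973, then 992 and 361, then 917 and 511, and treatment minus vehicle at day 5 was -0.34 ± 0.07 (adjusted p 0.051). The 11 copies took 0.102% to 0.183% of reads beside 3.08% to 4.77% for the core members, and whether their reads came from the core genes was not tested.

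**Figure D4:**
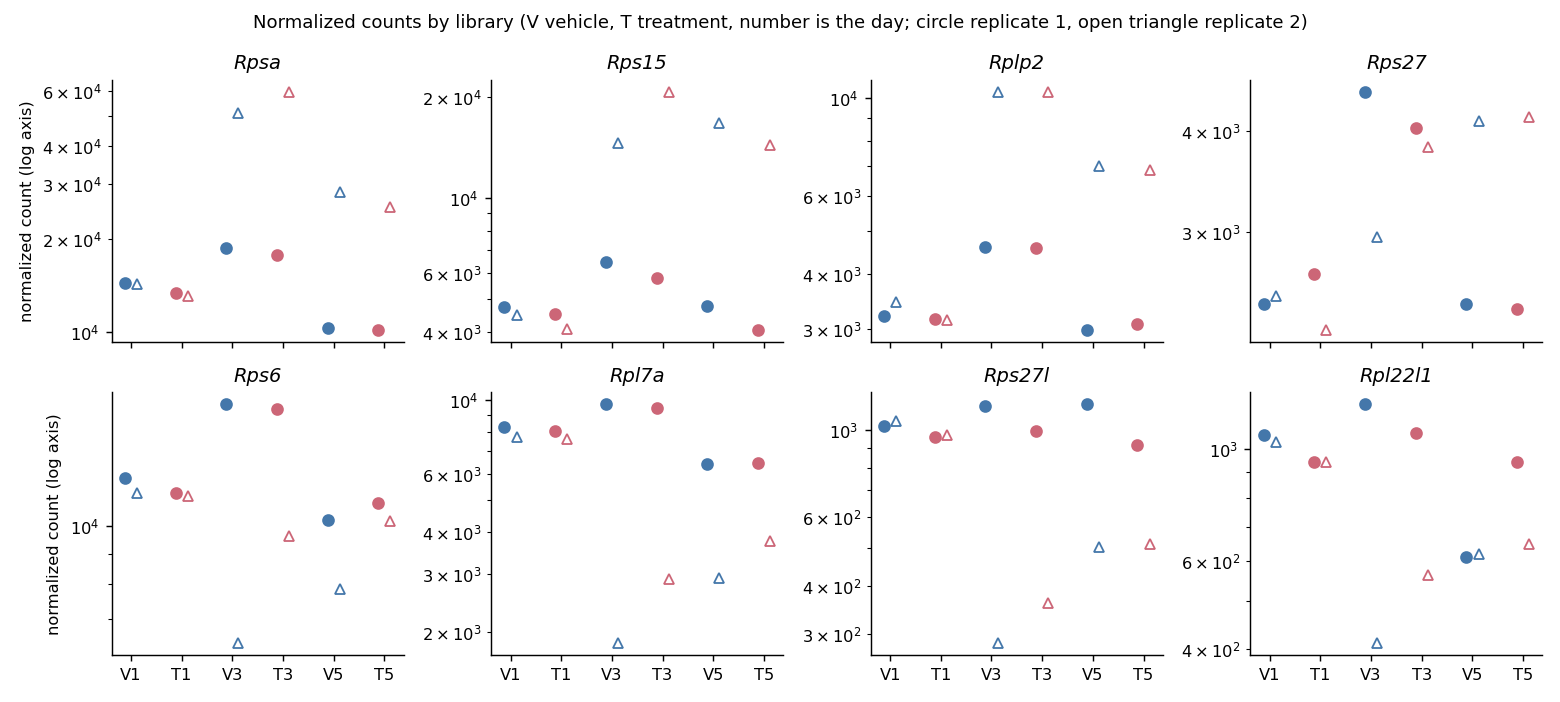
Normalized counts (log axis, scaled separately per gene) of 8 members in each library. Filled circles are replicate 1 and open triangles replicate 2, blue for vehicle and red for treatment. Rpsa, Rps15 and Rplp2 are higher in replicate 2 of days 3 and 5 than in any other library, Rpl7a and Rps27l lower, and Rps27 is highest in replicate 1 of day 3 of vehicle.

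Replicate 2 of days 3 and 5 also differed from replicate 1 in the proportions among ribosomal protein mRNAs. At day 1 replicate 2 minus replicate 1 ranged from -0.12 to 0.31 over the core members in vehicle and from -0.23 to 0.14 in treatment. At day 3 it ranged from -2.38 to 1.79 in vehicle and from -1.70 to 1.85 in treatment, and at day 5 from -1.14 to 1.96 and from -0.78 to 1.84. The core medians were -0.88, -0.08, 0.28 and 0.56 in the order vehicle and treatment of day 3, then of day 5, beside -1.71, -1.20, -1.28 and -0.92 over all genes tested. In these 4 arms 71, 75, 77 and 77 of 77 core members lay above the median of all genes.

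The order of the genes was alike in the 4 arms. Spearman correlations across the 77 core members ran from 0.935 to 0.984, a description across genes whose libraries share depth and RNA composition. In all 4 arms 15 core members were higher in replicate 2, 12 were lower and 50 were mixed. Between whole libraries, the core counts correlated at 0.976 to 0.996 (Spearman) among the other 8 libraries, at 0.935 to 0.985 among the 4, and at 0.629 to 0.83 between the sets.

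Near the upper end stood Rps15 and Rpsa, both of the small subunit, with mean differences over the 4 arms of 1.67 and 1.50. Rps15, in the head of the small subunit, had 4750 and 4470 counts in vehicle at day 1, 6467 and 14626 at day 3, and 4774 and 16785 at day 5. In treatment it had 4505 and 4078, then 5782 and 20783, then 4035 and 14436. For both genes replicate 2 was above every other library at both days.

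At the lower end stood Rpl7a, Rps27l and Rpl7, with mean differences of -1.50, -1.38 and -1.35. Rpl7a had 8286 and 7756 counts in vehicle at day 1, 9692 and 1858 at day 3, and 6404 and 2906 at day 5. In treatment it had 8073 and 7624, then 9454 and 2901, then 6452 and 3758. Rpl7, also of the large subunit, had 15280 and 3031 counts at day 3 of vehicle and 9562 and 4657 at day 5. Rpl7a and Rpl7 were lower in replicate 2 than in every other library.

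Per kilobase of coding sequence, Rps15 was the 37th and 40th of 77 core members in vehicle at day 1 and the 4th in replicate 2 of day 3, where it reached 33393 counts per coding kilobase. Rpl7a went from 40th and 44th to 76th, at 2319. Rpl41 (named after its value was seen), with a coding sequence of 78 bases, was first in every library, with 54584 to 59470 at day 1. The counts behind these values include reads in untranslated parts. The variation between core members, as a coefficient of variation per coding length, was 53.5% to 61.9% in the other 8 libraries and 86.5% to 118% in these 4.

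Coding length and GC content were loosely ordered with these differences. The mean difference of replicate 2 had a Spearman correlation of 0.32 with the GC content of the coding sequence and of -0.36 with its length across the 77 core members, beside 0.27 and -0.15 across 11448 protein-coding genes. The change from day 1 to day 3 in vehicle correlated at -0.07 with GC content and at -0.32 with coding length. The median of the replicate difference was 0.11 in large-subunit and -0.14 in small-subunit members.

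**Figure D5:**
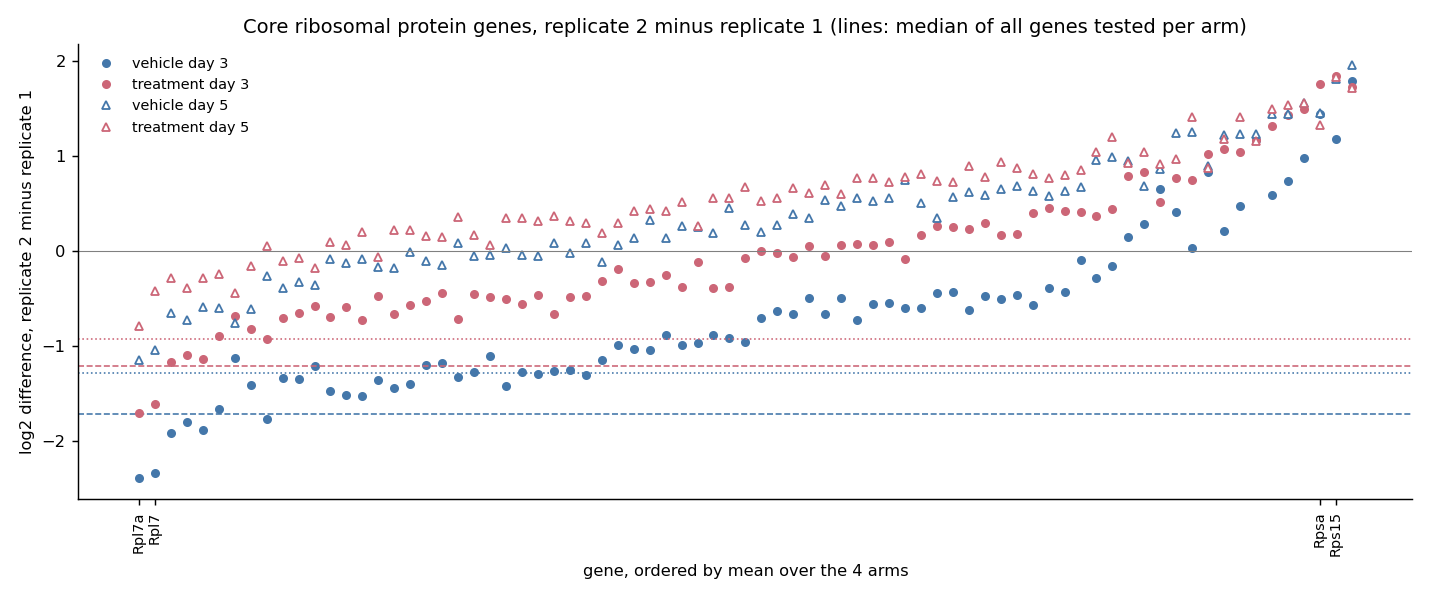
Log2 difference of replicate 2 minus replicate 1 for each of the 77 core members at day 3 (circles) and day 5 (triangles) of each arm, ordered by the mean over the 4 arms. Horizontal lines are the medians of all genes tested. The genes keep a like order in each arm, with Rpl7a at the lower end and Rps15 and Rpsa near the upper end; these and Rpl7 are labelled.

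Other genes of the translation machinery were read in the same 8-library fit. Of all genes tested, 9.69% were called higher and 10.0% lower at day 3 of vehicle, and 14.4% and 15.0% at day 5, which are the shares to set beside the counts of each list. Fau and Rack1 encode ribosomal subunits under other names, and both rose from day 1 to day 3 in vehicle, with 0.50 ± 0.07 and 0.52 ± 0.07 (adjusted p 0.0104 and 0.0102, limma). Of 8 genes listed as translation elongation factors, 4 rose and 0 fell, with a median of 0.35. Among them Eef2, the translocation factor, changed by 0.51 ± 0.11 (adjusted p 0.032) and the difference in Eef1a1, which brings in aminoacyl-tRNA, was 0.39 ± 0.12 (adjusted p 0.0853). Of 29 initiation factors 8 rose and 1 fell, with a median of 0.02, and Pabpc1, the poly(A)-binding protein, rose by 0.67 ± 0.09 (adjusted p 0.00819). Of 4 tested host genes of small nucleolar RNAs with a TOP tract, 2 rose, among them Gas5 by 0.90 ± 0.07 (adjusted p 0.00199).

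Of 34 factors that build ribosomes, 7 rose and 0 fell at day 3 of vehicle (median 0.18), and 23 fell and 0 rose at day 5 (median -0.44). In treatment 15 rose and 0 fell at day 3 (median 0.32), where 10.8% of all genes were called higher, and 25 fell and 0 rose at day 5 (median -0.41), where 18.1% were called lower. In vehicle Npm1, a nucleolar chaperone, had a difference of 0.30 ± 0.08 at day 3 (adjusted p 0.0595) and fell by 0.82 ± 0.08 at day 5 (adjusted p 0.00292, limma). Of 12 tested genes of RNA polymerase I and its factors, which make ribosomal RNA, 2 rose and 0 fell at day 3 of vehicle, and 0 rose and 6 fell at day 5. Of 19 mTORC1 and TOP mRNA regulators, 4 rose and 4 fell at day 3 of vehicle, and Larp1, which binds TOP tracts, had a difference of 0.01 ± 0.06 at day 3 (adjusted p 0.92) and fell by 0.51 ± 0.06 at day 5 (adjusted p 0.00447).

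Beside the 86 of 95 members that rose at day 3 of vehicle, the counts in other large complexes were 12 of 77 mitochondrial ribosomal proteins (median 0.17), 40 of 77 nuclear-encoded oxidative phosphorylation subunits (median 0.38) and 1 of 38 proteasome subunits (median -0.07), where 9.69% of all genes were called higher. At day 5, where 25 members fell, 25 mitochondrial ribosomal proteins, 24 oxidative phosphorylation subunits and 28 proteasome subunits did, where 15.0% of all genes were called lower. In replicate 2 minus replicate 1 of days 3 and 5 the median was -0.02 over the members, -0.87, -0.57 and -1.47 over these sets in the same order, and -1.30 over all genes tested. These are counts and medians without a test of the difference between sets.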

How the data were processed

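RNA sequencing (TruSeq libraries from total RNA) covered 12 libraries, 2 per group, grouped and numbered by their titles. The tools TopHat2, SAMtools and DESeq2 and the build mm9 are credited to the submitters' processing notes, and how reads were counted is not given in the sources used here. Per the file headers, the authors deposited 1 log2 value for each gene in each library. From the values, each is log2 of a normalized count plus 8, and once the offset is taken off, 100% of positive values in a library are whole multiples of a constant (tolerance 0.02 reads), which gives back the read numbers. Of 24757 rows, 993 repeats were dropped, and 23315 of 23764 identifiers were named from the reference, which is of a later build than mm9 and served for names, classes, lengths and sequences.

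The filter kept genes whose mean normalized count reached 10 in any group (14715 genes, 95 of 96 members). limma 3.58.1 in R 4.3.3 (1 mean per group, trended prior, no block) was fitted to log2(normalized count + 1), a scale that understates changes of low genes, over 12 libraries (6 residual degrees of freedom) and over the 8 libraries without replicate 2 of days 3 and 5 (2 residual degrees of freedom). P-values were adjusted over all genes by the Benjamini-Hochberg method. The deposited values are log2 values, and no count test was run, although read numbers could be recovered. An alternative was limma-voom on these recovered reads. Only the 8-library fit was run on simulated counts, for treatment minus vehicle at day 1 and for day 3 minus day 1 of vehicle. All simulated libraries had the same spread. The simulation therefore cannot show whether libraries of days 3 and 5 vary like those of day 1. Coding lengths came from 1 principal transcript per gene, and start sites from RefSeq. Reads of overlapping, antisense or near-identical genes cannot be told apart here.

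The members, lists, tests and alternatives were chosen with earlier results of these data known. Named members were the 6 with the highest mean count, up to 3 largest called rises and falls per comparison in the 8-library fit (or the largest difference each way), listed paralogs with their counterparts, Rps6, Rplp0, Rplp1, Rplp2, Rpsa and Rps19bp1, and the 3 highest and 3 lowest in replicate 2 minus replicate 1 at a mean of at least 50 counts. For other lists up to 3 of the most abundant genes were named. Some genes that these rules name are not reported here. Alternatives were another scaling, pseudocounts of 0.5 and 5, no filter, a replicate block, a term for the libraries that stand apart, and each library left out. Tables and figures used Python 3.11.15, numpy 2.4.6, pandas 2.3.3, scipy 1.17.1 and matplotlib 3.10.9.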

Additional observations from a re-analysis of the deposited data

How the results depend on the processing

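Over 12 libraries, 0 members were called in each comparison of the arms, in each vehicle comparison of days and in the test between days, under every alternative run, among them each library left out (0 to 0). With the replicate number as a block the count was also 0. No number marks a shared culture in the labels, and with 2 pairs per comparison the numbers were not taken to pair samples. The deviations of same-numbered libraries nonetheless correlated across genes between the arms, at 0.07, 0.90 and 0.90 at days 1, 3 and 5. Same-numbered libraries of days 3 and 5 thus deviated alike, and the cause was not tested. In the added comparison of days 1 and 3 in treatment, a term by day for replicate 2 of days 3 and 5 gave 1 called member, Rps27.

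The medians over members in the 12-library fit depended on scaling and on single libraries. From day 1 to day 3 of vehicle the median of 0.10 became 0.53 with quantile normalization and 0.68 when scaled to nuclear protein-coding reads, and from day 1 to day 5 the median of 0.09 became 0.46 and 0.60. In treatment the scaling to nuclear protein-coding reads gave 0.82 at day 3 and 0.59 at day 5, in place of 0.39 and 0.20. With each library left out, the day 3 median of vehicle ran from -0.41 (without vehicle replicate 1 of day 3) to 0.46 (without replicate 2). Treatment minus vehicle at day 3 ran from -0.19 to 0.63, at day 5 from -0.20 to 0.35, and at day 1 from -0.08 to -0.04. At day 5 its median of 0.05 was -0.03 with quantile normalization and -0.08 when scaled to nuclear protein-coding reads.

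In the 8-library fit, no filter gave 32 called members for day 3 and 7 for day 5 of vehicle, and 30 and 5 of treatment, in place of 86, 26, 85 and 24. It gave 2 for treatment minus vehicle at day 5 and 1 in the test between days. A pseudocount of 5 gave 1 for treatment minus vehicle at day 1 and 2 at day 5. limma-voom gave 1 at day 1, 1 at day 3, 5 at day 5 and 1 in the test between days. Leaving out each day 1 library gave 0 to 58 for day 3 and 1 to 8 for day 5 of vehicle, 0 to 5 and 2 to 7 of treatment, and 0 to 0 for treatment minus vehicle at day 5. The treatment median was 0.39 at day 3 with quantile normalization, and at day 5 ran from -0.123 to -0.0626 with each library left out. Of 640 recomputed values for called named members, 0 reversed, 378 stayed past the threshold and 262 did not, 216 of these with a library left out. All were refits of the 8 libraries, so replicate 2 of days 3 and 5 could not change a sign. Over 12 libraries the sign at day 3 of vehicle differed between named members, with -0.41 in Rpl10 and 0.31 in Rpl36a. The share of all genes called is not given for the refits with a library left out, no filter or another pseudocount. The cause of these shifts was not tested. Few reads limit what can be said of Rpl3l and Rpl39l, and 1 library per arm at days 3 and 5 limits every call of the 8-library fit.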
